A study of Mus musculus with 4 samples.

Results

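The Slit, semaphorin and ephrin guidance genes code for ligands and receptors that steer migrating cells and growing processes. They were taken by name: every protein-coding gene of the mouse mm9 annotation whose symbol begins with Slit, Robo, Sema, Plxn, Nrp, Efna, Efnb, Epha, Ephb or Unc5 and continues with a number or letter. The rule found 64 of 22225 genes, 31 coding for ligands and 33 for receptors. Phospho-CREB occupancy around them was read from chromatin immunoprecipitation and sequencing of MC3T3-E1, a pre-osteoblast line of the mouse used as a culture model of bone-forming cell precursors. The antibody recognises CREB phosphorylated at serine 133. Cells had received 100 nM forskolin, an activator of adenylyl cyclase that raises cAMP, or DMSO vehicle, for 1 h, with 2 libraries per treatment that the labels describe as biological replicates. All groups were the same line in the same culture medium, with no genetic change. An input library of another series was not analysed here.

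Slits are secreted proteins that bind Robo receptors. Class 3 semaphorins are secreted and bind complexes of a neuropilin and a plexin, whereas most other semaphorins stay on the membrane and bind plexins directly. Class A ephrins are tied to the membrane by a lipid anchor and bind mainly EphA receptors, class B ephrins span the membrane and bind mainly EphB receptors, and UNC5 proteins are netrin receptors. In bone, Sema3a, Sema4d and the pair Efnb2 and Ephb4 are known for signalling between osteoblasts and osteoclasts. CREB binds the cAMP response element (CRE), and protein kinase A phosphorylates it when cAMP rises. Occupancy is not expression, and no RNA was measured in these libraries.

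The depth of sequencing is unknown, because each library is a list of peaks with a score. The lists hold 14686 and 10180 peaks in vehicle replicates 1 and 2, and 25566 and 19371 peaks in forskolin replicates 1 and 2. Peaks that shared at least 1 bp were joined into 28335 regions. Forskolin-only regions are those with a peak in each of the forskolin libraries and none in vehicle, and vehicle-only regions the reverse. Since both forskolin lists are longer than both vehicle lists, list length and treatment cannot be told apart in a call of this kind. The score is the authors' own value for each peak and its scale is not stated, so it is given as a percentile within its list, where 100 is the highest. Scores took 285 distinct values in forskolin replicate 2 and 378 to 819 in the other lists, so equal percentiles such as 12.4 recur in that replicate. Distance is measured between the centre of a region and the closest annotated transcript start of the gene.

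The following sequences carry the main contrasts among these genes. The first 3 hold a complete CRE, the next 5 hold its core or the binding sequence of AP-1 in high-ranked forskolin-only regions, and the last shows a promoter region with no such letters. All are from mm9, plus strand, as the 201 bp around the region's centre, except that the Epha2 promoter ends at the base before the transcript start (151 bp). Capitals mark the full CRE (TGACGTCA), its core (TGACG or CGTCA on the other strand) and AP-1 (TGAGTCA or TGACTCA). The core lies inside the full CRE, so a full CRE counts for both. Of all 28335 regions, 3.53% held the full CRE, 29.1% the core and 13.8% AP-1 in the same window.
Epha2 promoter, all 4 libraries, chr4:140857004-140857154: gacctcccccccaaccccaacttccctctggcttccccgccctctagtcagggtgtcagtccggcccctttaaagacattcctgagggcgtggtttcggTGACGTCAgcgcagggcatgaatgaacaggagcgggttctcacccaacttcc
Slit3 deep intron, forskolin-only, chr11:35106041-35106241: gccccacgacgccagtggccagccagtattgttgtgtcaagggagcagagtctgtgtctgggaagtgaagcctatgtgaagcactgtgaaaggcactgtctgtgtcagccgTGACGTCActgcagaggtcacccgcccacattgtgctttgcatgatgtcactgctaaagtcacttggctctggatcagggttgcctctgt
Efna5 intron, forskolin-only, chr17:63114621-63114821: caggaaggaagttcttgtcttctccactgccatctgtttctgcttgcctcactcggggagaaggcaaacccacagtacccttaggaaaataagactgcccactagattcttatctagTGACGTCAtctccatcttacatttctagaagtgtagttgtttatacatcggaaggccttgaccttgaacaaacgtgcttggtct
Efna2 upstream and Cirbp promoter, forskolin-only, chr10:79628531-79628731: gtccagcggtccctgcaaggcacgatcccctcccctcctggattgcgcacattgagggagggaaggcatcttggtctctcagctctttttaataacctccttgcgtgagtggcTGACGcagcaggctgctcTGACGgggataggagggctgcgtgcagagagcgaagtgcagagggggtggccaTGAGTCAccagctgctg
Epha2 upstream, forskolin-only, chr4:140837090-140837290: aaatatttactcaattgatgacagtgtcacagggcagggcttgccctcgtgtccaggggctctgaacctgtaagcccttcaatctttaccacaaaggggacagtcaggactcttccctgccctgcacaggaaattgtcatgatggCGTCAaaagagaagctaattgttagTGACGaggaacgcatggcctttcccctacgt
Slit3 intron, forskolin-only, chr11:35063634-35063834: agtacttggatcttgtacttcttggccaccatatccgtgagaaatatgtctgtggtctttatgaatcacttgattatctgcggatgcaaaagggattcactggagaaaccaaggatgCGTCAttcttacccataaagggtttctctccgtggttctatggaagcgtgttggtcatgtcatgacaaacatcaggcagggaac
Sema3a intron, forskolin-only, chr5:13388980-13389180: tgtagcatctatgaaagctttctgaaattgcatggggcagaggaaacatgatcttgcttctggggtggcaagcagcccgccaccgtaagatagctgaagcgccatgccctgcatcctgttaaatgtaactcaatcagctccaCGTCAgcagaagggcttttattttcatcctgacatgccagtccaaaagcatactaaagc
Slit1 upstream, forskolin-only, chr19:41822025-41822225: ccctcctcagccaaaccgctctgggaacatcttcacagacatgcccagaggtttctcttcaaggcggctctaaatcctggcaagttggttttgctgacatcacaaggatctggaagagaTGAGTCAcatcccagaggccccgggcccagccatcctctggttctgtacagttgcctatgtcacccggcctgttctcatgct
Plxna3 promoter, forskolin-only, chrX:71574090-71574290: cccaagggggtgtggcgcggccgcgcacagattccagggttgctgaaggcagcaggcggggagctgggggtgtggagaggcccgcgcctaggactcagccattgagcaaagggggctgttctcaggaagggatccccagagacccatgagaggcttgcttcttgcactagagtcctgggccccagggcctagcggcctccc

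Forskolin-only regions lay near more guidance genes, by share, than near protein-coding genes in general, and regions of all 4 libraries lay at fewer of their promoters. Within 10 kb of a start, 12 of the 64 genes (18.8%, Wilson 95% interval 11.1 to 30%) had a forskolin-only region, against 8.88% of all protein-coding genes. When every list was cut to the length of the shortest, 4 genes (6.25%) had one within 10 kb, against 2.57% of all genes. Of these 4, 2 were new, Plxna1 and Sema3b. Their regions had a peak in vehicle replicate 1 in the full lists, at percentiles of 2.44 and 0.197, which the cut removed. Within 1 kb the count with full lists was 5 genes (7.81%, interval 3.38 to 17%) against a background of 3.11%. When the lower-scoring 50% of every list was left out, the 1 kb count was 1 gene (1.56%) against 2.36%, so the direction turned. Within 100 kb it was 30 genes (46.9%, interval 35.2 to 58.9%) against 39.7%, which lies inside the interval. The order was the other way for regions of all 4 libraries, which lay within 1 kb of 9 guidance genes (14.1%, interval 7.58 to 24.6%) against 30.4% of all genes. At 10 kb such regions were found for 13 guidance genes (20.3%) against 37.5%, and at 100 kb for 42 (65.6%) against 67.1%. A vehicle-only region was found within 100 kb of 1 guidance gene (1.56%), Efna2, against 2.07% of genes, and within 10 kb of none. The intervals cover counting error over genes only. These gene counts were not tested, because the genes were chosen with results of the data known.

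**Figure D1:**
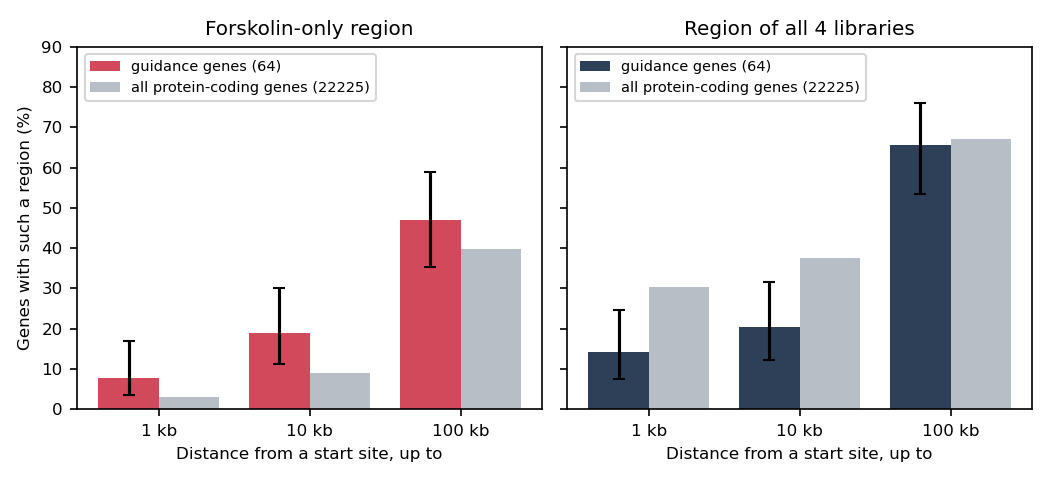
Percent of the 64 guidance genes (coloured bars, with Wilson 95% intervals) and of all 22225 protein-coding genes (grey bars) with a forskolin-only region (left) or a region of all 4 libraries (right) within 1, 10 and 100 kb of a transcript start. The guidance bars stand above the grey bars on the left at every distance and below them on the right, by least at 100 kb.

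Library by library, the contrast with all genes depended on the window. In vehicle replicates 1 and 2, 21 and 16 guidance genes had a peak within 10 kb (32.8% and 25%), where 46.7% and 39.7% of all genes did. In forskolin replicates 1 and 2 the counts were 35 and 30 guidance genes (54.7% and 46.9%), beside 54.2% and 49.2% of all genes. Within 10 kb the guidance genes were thus below the share of all genes in both vehicle libraries and close to it in both forskolin libraries. Within 1 kb they were below it in all 4 libraries, with 23.4% and 15.6% in vehicle against 38.6% and 32.4%, and 34.4% and 31.2% in forskolin against 43.3% and 39.2%. Within 100 kb they were above it in all 4, with 76.6% and 70.3% in vehicle against 74% and 69%, and 84.4% and 78.1% in forskolin against 79% and 76.4%. Any region at all lay within 10 kb of 35 guidance genes (54.7%) and of 55.2% of all genes.

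The share of a library's peaks near guidance genes was compared between the treatments. Peaks within 10 kb of a guidance gene made up 0.184% and 0.196% of vehicle replicates 1 and 2 and 0.211% and 0.232% of forskolin replicates 1 and 2. The groups did not overlap, with means of 0.19% ± 0.00892 and 0.222% ± 0.0149 (SD, n = 2 each), but the two-sided exact permutation test gave p = 0.333, the smallest that 2 libraries against 2 allow. The difference of 0.0316 percentage points was 0.00491 with equally long lists (exact permutation p = 1) and 0.0133 with only the gene's 5′ end as start (exact permutation p = 0.667). Within 100 kb the order was the reverse, with 1.33% and 1.48% in vehicle and 1.18% and 1.29% in forskolin (exact permutation p = 0.333). Within 1 kb the means were 0.115% and 0.112% (exact permutation p = 0.667), a difference smaller than the spread between replicates. Because the genes were chosen with results of the data known, these p-values are descriptive only.

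Guidance genes are longer and have more starts than most genes. Their median span was 45.1 kb with 3 distinct starts, against 15.5 kb and 2 for all genes, and 28 of them (43.8%) exceed 100 kb, against 10.8% of genes. Among genes over 100 kb, 6 of 28 guidance genes (21.4%) had a forskolin-only region within 10 kb of a start, beside 14.6% of all such genes, and among shorter genes 6 of 36 (16.7%), beside 8.18%. For regions of all 4 libraries within 1 kb, the corresponding shares were 1 of 28 (3.57%) beside 26% for long genes and 8 of 36 (22.2%) beside 30.9% for shorter ones. The direction of both contrasts was therefore the same in long and in shorter genes. The counts were not split by number of starts. The 12 guidance genes with a forskolin-only region within 10 kb had medians of 5 starts and 113 kb. The other 52 had medians of 3 starts and 41.7 kb.

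Forskolin-only regions were more frequent near ligands and all-library regions at promoters more frequent near receptors. Within 10 kb, 8 of 31 ligands and 4 of 33 receptors had a forskolin-only region, where 8.88% of all genes had one. Within 100 kb, 21 ligands and 9 receptors did, where 39.7% of all genes had one. Neighbouring ligands share some of the regions within 100 kb, so 1 region can count for more than 1 gene. Regions of all 4 libraries lay within 1 kb of 2 ligands and 7 receptors, where 30.4% of all genes had one. The difference between ligands and receptors was not tested. A region of any kind lay within 100 kb of 84.4% of guidance genes and 79.5% of all genes, so genes without one were not more frequent here. No region of any kind lay within 100 kb of 2 ligands, Sema3d and Sema6d, and 8 receptors, Epha5, Epha6, Epha7, Ephb1, Robo1, Unc5a, Unc5c and Unc5d. Of these 10 genes, Sema3d and Robo1 held a region further inside the gene.

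**Figure D2:**
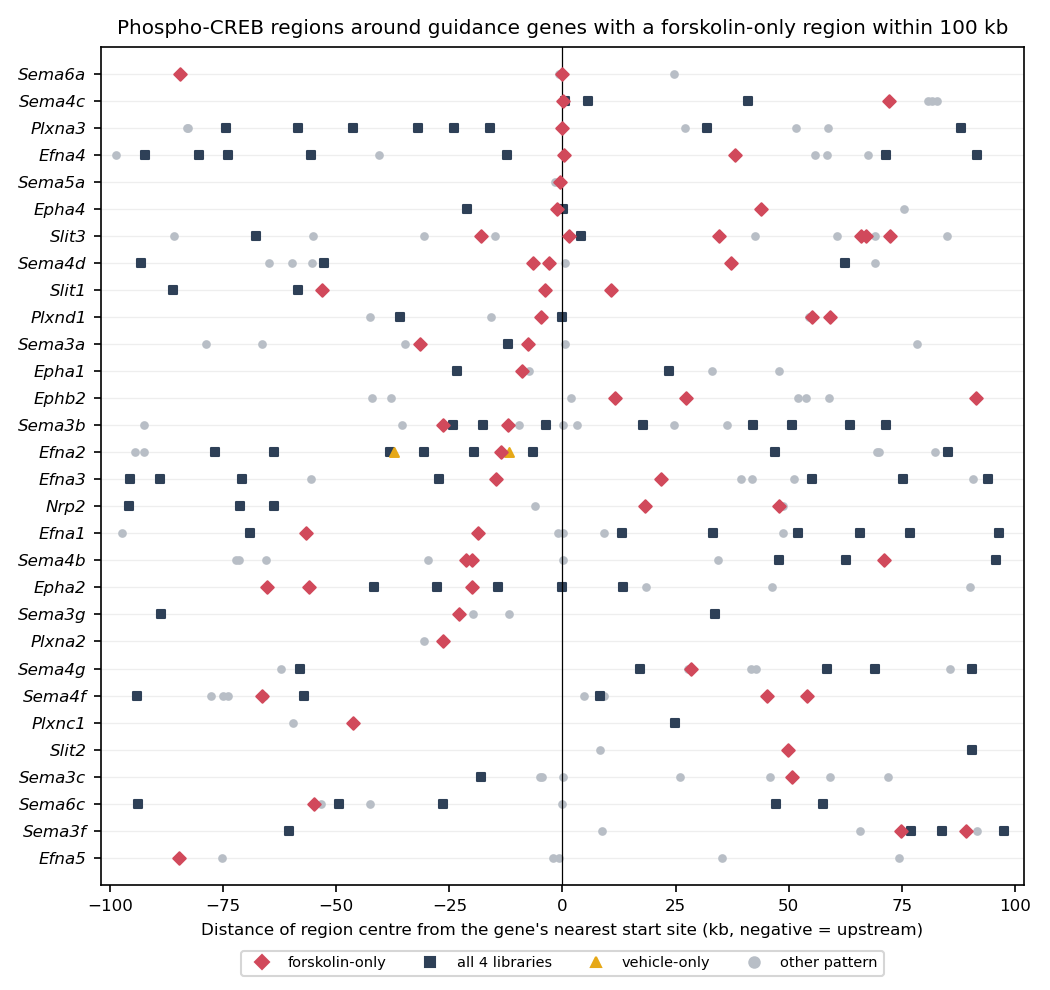
Position of every region within 100 kb of a transcript start for the 30 guidance genes with a forskolin-only region in that window (horizontal axis, kb from the nearest start, negative upstream). Red diamonds are forskolin-only regions, dark squares regions of all 4 libraries, orange triangles vehicle-only regions and grey points other patterns. In 12 genes a red diamond lies within 10 kb, and Slit3 has 6 of them within 100 kb, where no other gene shown has more than 3.

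All 3 Slit ligands had a forskolin-only region within 100 kb, and 2 of them, Slit1 and Slit3, within 10 kb. Of all genes, 39.7% had one within 100 kb and 8.88% within 10 kb. At Slit1 the region lay 3970 bp upstream, between genes (chr19:41821942-41822309), at percentile 82.9 in forskolin replicate 1 and 75.3 in replicate 2. It is the Slit1 sequence shown above, with an AP-1 match and no CRE core. Neither vehicle library had a peak there. The other 2 Slit1 regions of this class ranked lower, at 20.1 and 36.4 and at 40.5 and 32. The Slit2 region lay 49838 bp downstream of a start, nearer to Pacrgl, with percentiles of 13.2 and 22.2. A region of all 4 libraries lay within 10 kb at Slit3 alone among the Slits.

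Slit3 had the most forskolin-only regions of any guidance gene, which is why it is singled out, after its values were seen. The gene spans 587 kb and held 14 regions, all in introns, of which 7 were forskolin-only, 1 was found in all 4 libraries and 6 were called in 1 forskolin library. Vehicle peaks occurred in 1 of the 14 regions. Genes with at least 7 forskolin-only regions inside them numbered 8 (0.036% of all genes). Slit3 is among those 8, and its span compares with a median of 15.5 kb over all genes.

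The forskolin-only regions of Slit3 all fell in the first 171.4 kb of the gene. The highest-ranked lay 129.0 kb from the 5′ end (chr11:35063573-35063896), with percentiles of 92.6 and 84.6 in forskolin replicates 1 and 2 and scores of 61.3 and 33.0. Its window holds a CRE core, shown above. Regions at 91.3, 122.6 and 123.6 kb had percentiles of 67.2 and 80.5, 71.3 and 65.9, and 66.2 and 58.2. The region furthest from the 5′ end, at 171.4 kb (chr11:35105984-35106298), had percentiles of 67.6 and 60.4 and holds the full CRE printed above. Ranks near the start were lower in replicate 2: the region 1337 bp downstream (chr11:34935904-34936222) had 47.2 and 12.4, and that at 32.4 kb had 70.2 and 5.31. A CRE core was found in 4 of the 7.

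The region of all 4 libraries in Slit3 lay 4030 bp downstream of the start (chr11:34938560-34938953). Its percentiles were 49.7 and 4.94 in vehicle replicates 1 and 2 and 82.2 and 55.9 in forskolin replicates 1 and 2. To set lists of different length side by side, each library was also ranked over the same 8930 regions of all 4 libraries, here called the common percentile. On that scale the values were 28.1 and 4.02 in vehicle and 59.6 and 31.6 in forskolin, so both forskolin libraries were above both vehicle libraries. Of all 8930 regions, 18.4% showed that order and 31.3% the reverse.

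**Figure D3:**
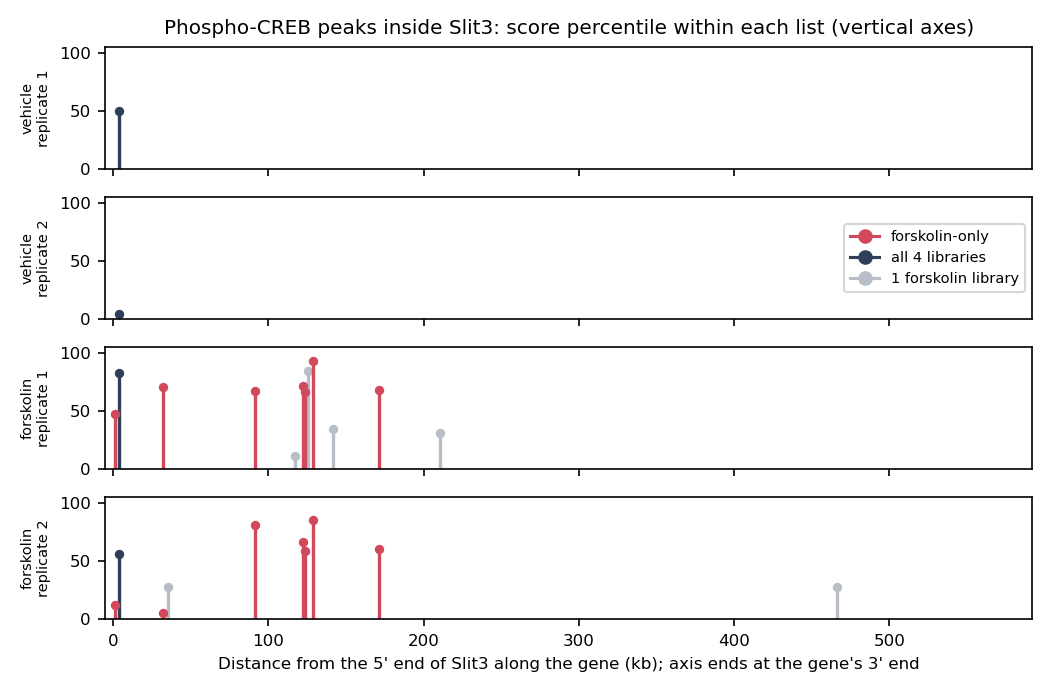
Peaks inside Slit3 in each library, by distance from the 5′ end of the gene (horizontal axis, kb) and score percentile within the list (vertical axes). Both vehicle libraries have a peak only in the region 4.0 kb from the 5′ end, whereas forskolin peaks extend to 210.5 kb in replicate 1 and 466.1 kb in replicate 2.

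Among the 7 class 3 semaphorins, the secreted group, Sema3a had a forskolin-only region within 10 kb, where 8.88% of all genes had one. Within 100 kb, 5 of the 7 had a region of this class, where 39.7% of all genes did. These are few genes, and the difference was not tested. Sema3a codes for a repellent of nerve growth that in bone restrains osteoclast formation and favours osteoblasts. Its region 7704 bp upstream of an internal start (chr5:13388890-13389270, intron) had percentiles of 83.1 and 81.1 and scores of 35.6 and 28.9 in forskolin replicates 1 and 2, the highest lower percentile of the 13 forskolin-only regions within 10 kb of guidance genes. It holds the CRE core printed above. A further region 31441 bp upstream of that start (chr5:13365187-13365499, intron) had 89.1 and 79.8 and an AP-1 match. Between them, 11946 bp upstream, lay a region of all 4 libraries with common percentiles of 35.1 and 52.3 in vehicle and 73.2 and 69.6 in forskolin, again with both forskolin libraries higher. These regions are deep in the gene: with the gene's own 5′ end as the start, Sema3a has no forskolin-only region within 10 kb. Sema3b and Sema3f, neighbours, share 2 such regions.

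The 13 membrane-bound semaphorins had 4 genes with a forskolin-only region within 10 kb, where 8.88% of all genes had one. At 3 of the 4 genes the region was at a promoter. At Sema6a, a ligand of A-type plexins, the region lay 3 bp from the start, in the first exon, with percentiles of 34.8 and 50.5. At Sema4c, a ligand of Plxnb2, it lay 138 bp downstream (chr1:36614787-36615126, exon) with 67.2 and 22.2. At Sema5a, which carries thrombospondin repeats, it lay 442 bp upstream (chr15:32173960-32174293) with 41.6 and 17.1. Ranks at these promoters were middling or low, and uneven between the replicates. The Sema4c region adjoins a region of all 4 libraries 506 bp downstream of the start (chr1:36613377-36614354), and the pair becomes 1 region if peaks up to 500 bp apart are joined. That neighbour had common percentiles of 22 and 22.8 in vehicle and 18.9 and 12.4 in forskolin, with both vehicle libraries higher.

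Sema4d, the ligand of Plxnb1 that osteoclasts use to restrain osteoblasts, had a pair of forskolin-only regions in introns within 10 kb of its starts. Both distances are to internal starts. The one 6593 bp upstream (chr13:51878895-51879251), 10.0 kb from the gene's 5′ end, had percentiles of 47.2 and 17.1 and a CRE core. The one 2934 bp upstream (chr13:51832776-51833357), 56.0 kb from the 5′ end, ranked low in both lists, at 11.4 and 1.53. Further out, Sema4g and Sema6c stood among the 15 highest-ranked regions, at 28503 and 54958 bp from their starts, with 61.9 and 58.2 and with 66.2 and 58.2. Those regions lie in introns of other genes, Lzts2 and Pip5k1a. The same holds for the second Sema4c region, 72174 bp away in an intron of Cnnm4, at 56.5 and 44.1. Much of the 201 bp window of the Sema4g region consists of CA repeats.

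All 5 class A ephrins and none of the 3 class B ephrins had a forskolin-only region within 100 kb, against 39.7% of all genes. With so few genes, some of them sharing regions, no difference between the classes can be read from this. Efna4 had one at its promoter, 260 bp downstream (chr3:89141486-89141895, intron), at percentiles of 15 and 22.2. Efna1, Efna3 and Efna4 are neighbours, and this region and one between the genes are counted for more than 1 of them. Efna5 had a region within an intron 84654 bp upstream of a start, at 54.5 and 36.4. A further one lay 115772 bp downstream of the nearest start, beyond the 100 kb window (chr17:63114556-63114887), at 33.6 and 12.4, and holds the full CRE printed above. Of the class B genes, Efnb2 had a promoter region in all 4 libraries, 104 bp upstream (chr8:8661140-8661547), with common percentiles of 54.9 and 32.2 in vehicle and 43.9 and 56.9 in forskolin, which overlap.

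The highest-ranked forskolin-only region near any guidance gene lay 13596 bp upstream of Efna2 (chr10:79628474-79628789). It had percentiles of 99.8 and 99.6 in forskolin replicates 1 and 2, with scores of 289.3 and 154.2, and its window holds 2 CRE cores and an AP-1 match. The nearest start is that of Cirbp, a cold-inducible RNA-binding protein gene, 98 bp away. Both vehicle-only regions near guidance genes also lay upstream of Efna2. One was 11742 bp from its start, in an intron of Cirbp (chr10:79630322-79630647), at percentiles of 79.4 and 80.8 in vehicle replicates 1 and 2. The other was 37171 bp away, at the start of Atp5d (chr10:79604877-79605235), at 78.2 and 68.2. Efna2 thus combined both classes within 100 kb, but each of these 3 regions was nearest to another gene.

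**Figure D4:**
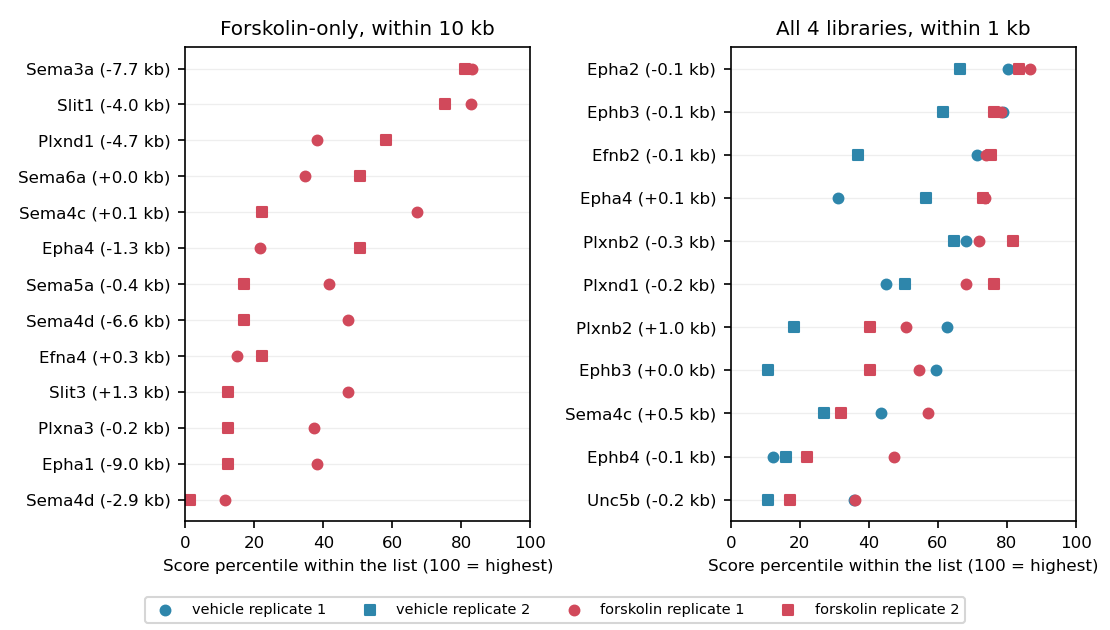
Score percentile within each list (horizontal axis, 100 is the highest) of the 13 forskolin-only regions within 10 kb of a guidance gene (left) and the 11 regions of all 4 libraries within 1 kb (right), with the distance from the start in brackets. Circles are replicate 1, squares replicate 2, blue vehicle and red forskolin. Sema3a and Slit1 lie above 75 in both forskolin libraries on the left, and Epha2 has the highest forskolin values on the right.

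Among receptors, the 4 Robo genes had no region of any kind within 10 kb and no forskolin-only region within 100 kb. The closest regions of all 4 libraries lay 55788, 56051 and 53466 bp from Robo2, Robo3 and Robo4. Robo3 and Robo4 are neighbours, and the regions given for them lie within 100 kb of both genes. The region given for Robo4 has Ccdc15 as its nearest gene. A forskolin-only region lay within 100 kb of 3 of 3 Slit genes and 0 of 4 Robo genes, against 39.7% of all genes, and with so few genes no difference between ligands and receptors can be read from this. Of the 4 UNC5 receptors, 3 had no region within 100 kb, where 1 of the 4 Robo genes had none and 79.5% of all genes had one. Unc5b, the exception, had a promoter region in all 4 libraries 204 bp upstream (chr10:60294345-60294720), with common percentiles of 15.5 and 8.84 in vehicle and 3.91 and 5.46 in forskolin, both vehicle libraries being higher.

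Plexins, the receptors of semaphorins, had forskolin-only regions within 10 kb in 2 of 9 genes, Plxnd1 and Plxna3, against 8.88% of all genes. The region of Plxnd1, receptor of Sema3e, lay 4718 bp upstream of an internal start (chr6:115923983-115924341, intron) with percentiles of 38.3 and 58.2, and another 59116 bp away in Ift122 had 53 and 40.3. The Plxna3 region lay 214 bp upstream (chrX:71574022-71574359) with 37.2 and 12.4. Its window, the last sequence printed above, had none of the 3 motifs. Plxnc1 had a region 46220 bp upstream with 74.9 and 44.1 and a CRE core. The neuropilins had a forskolin-only region within 100 kb in 1 of 2 genes, Nrp2, where 39.7% of all genes had one.

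Promoters of Plxnb2 and Plxnd1 were occupied in all 4 libraries. At Plxnb2 the region 294 bp upstream (chr15:89011313-89011711) had common percentiles of 50.7 and 60.9 in vehicle and 40.4 and 66.7 in forskolin. A second Plxnb2 region lay in an intron 11.1 kb from the gene's 5′ end, 972 bp downstream of an internal start (chr15:88999893-89000266). It had 43.1 and 15.1 in vehicle and 12.3 and 17.5 in forskolin. At Plxnd1 the region 200 bp upstream (chr6:115945055-115945390) had 23.5 and 45.8 in vehicle and 34 and 58.5 in forskolin. The groups overlapped at all 3 regions.

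EphA receptors had forskolin-only regions within 10 kb in 2 of 9 genes, and EphB receptors in 0 of 5, against 8.88% of all genes. At Epha4, which binds ephrins of both classes, the region lay 1312 bp upstream (chr1:77512786-77513164) with percentiles of 21.8 and 50.5. Beside it, 142 bp downstream of the start, lay a region of all 4 libraries (chr1:77511344-77511697) with common percentiles of 12.5 and 52.3 in vehicle and 43.3 and 53.7 in forskolin. At Epha1 the region lay 8996 bp upstream (chr6:42332049-42332477) with 38.3 and 12.4, and held both a CRE core and an AP-1 match.

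Epha2, an EphA receptor with roles in epithelia and bone cells, had both an all-library promoter region and high-ranked forskolin-only regions. Its promoter region 51 bp upstream (chr4:140856937-140857271) was found in all 4 libraries and holds the full CRE printed first above. The common percentiles there were 68.5 and 62.8 in vehicle and 68.9 and 69.6 in forskolin, so the forskolin libraries were higher by a small margin. A forskolin-only region 19964 bp upstream (chr4:140837007-140837374) had percentiles of 95.8 and 86, scores of 85.0 and 35.1, and 2 CRE cores, and Epha2 was its nearest gene. It ranked second of the forskolin-only regions within 100 kb of any guidance gene. Another, 65344 bp upstream (chr4:140791643-140791979), had 75.7 and 79 but was nearest to C630004L07Rik.

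The EphB receptors carried promoter regions in all 4 libraries at Ephb3 and Ephb4. At Ephb3 the region 110 bp upstream of a start (chr16:21204546-21204890) had common percentiles of 66.5 and 57.5 in vehicle and 51.8 and 58.5 in forskolin. Another at a second start, 33 bp downstream (chr16:21210955-21211447), had 39.1 and 8.84 in vehicle and 16 and 17.5 in forskolin. At Ephb4, the osteoblast receptor of Efnb2, the region 82 bp upstream (chr5:137790990-137791520) had 3.8 and 13 in vehicle and 9.63 and 7.61 in forskolin. The groups overlapped at all 3, and Ephb4 was near the bottom of the common ranking in every library.

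Of the 16 regions of all 4 libraries within 10 kb of guidance genes, 3 (18.8%) had both forskolin libraries above both vehicle libraries on the common scale, and 4 (25%) had the reverse. Within 100 kb the counts were 28 (21.2%) and 34 (25.8%) of 132. The backgrounds given above are 18.4% and 31.3%, so the first share was near its background and the second somewhat below it, untested. The third region with higher forskolin values within 10 kb, besides those of Epha2 and Slit3, lay 8243 bp downstream of Sema4f (chr6:82859109-82859565). It had common percentiles of 39.1 and 64.8 in vehicle and 85.6 and 73.8 in forskolin, with a CRE core and an AP-1 match.

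Counted as regions rather than genes, the classes near guidance genes depended on the window. Forskolin-only regions were 13 of 59 regions within 10 kb (22%) and 53 of 332 within 100 kb (16%), against 18.3% of all regions. Regions of all 4 libraries were 16 (27.1%) within 10 kb and 132 (39.8%) within 100 kb, against 31.5%, so they were below the share of all regions in the narrower window and above it in the wider one. In 36 of the 53 forskolin-only regions within 100 kb, a guidance gene was the nearest gene. Counting nearest genes only, 12 guidance genes had such a region within 10 kb (background 7.41%) and 23 (35.9%) within 100 kb (background 14.2%). Without that restriction the 100 kb shares were 46.9% and 39.7%. The nearest-gene count was not split by gene length, and guidance genes are longer than most. Of the 53, 29 were in introns, 21 between genes and 3 in exons, and 20 were inside the body of a guidance gene.

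Inside the genes, whatever the distance to a start, 12 of the 64 (18.8%) held at least 1 forskolin-only region, against 8.31% of all genes. Among genes over 100 kb the order was different, with 8 of 28 guidance genes (28.6%) beside 31.4% of all such genes. In genes up to 100 kb it was 4 of 36 (11.1%) beside 5.51%. Long guidance genes thus held these regions at about the rate of long genes in general. Nrp1, a neuropilin with none within 100 kb of a start, held one 117339 bp downstream (chr8:131000155-131000469) at percentiles of 57.8 and 12.4.

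Forskolin-only regions within 100 kb of guidance genes ranked much like others of their class, while those within 10 kb had lower medians in both forskolin libraries. The median percentiles of the 53 were 42.6 and 32 in forskolin replicates 1 and 2, against 44.6 and 32 over all 5187, and those of the 13 within 10 kb were 38.3 and 22.2. A CRE core was present in 15 of 53 (28.3%) against 38.6% of all forskolin-only regions, and AP-1 in 13 (24.5%) against 21.8%. The full CRE was in 0 of 53, against 3.59%, and the 2 intronic regions of Slit3 and Efna5 with one lie beyond the 100 kb window. Among regions of all 4 libraries near guidance genes, 52 of 132 held the core (39.4%) against 39.3%, and 7 the full CRE (5.3%) against 6.64%. A match is a description of letters and does not show a bound site.

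The other genes of these pathways, a list of 68 annotated genes, had forskolin-only regions at a share near that of the ligands and receptors. Within 10 kb, 14 of 68 (20.6%) had such a region, against 18.8% of the guidance genes and 8.88% of all genes. Within 1 kb, 18 (26.5%) had a region of all 4 libraries, against 14.1% and 30.4%, and the difference between the lists was not tested. Effectors, a list of 56 of the 68 genes that includes membrane proteins such as Adam10, made up 13 of the 14 (23.2% of that list). The promoter regions were those of Rac1, a small GTPase that drives membrane protrusion (108 bp upstream, percentiles of 76.4 and 69), Adam10, a protease that sheds ephrins (54 bp upstream, 36.1 and 40.3), Kalrn, an exchange factor for Rac (78 bp downstream, 39.4 and 47.5), and Vasp, an actin regulator (834 bp upstream, 8 and 36.4). Rhod, a small GTPase, had one 1337 bp downstream with 57.2 and 70.4, and the rest were Dpysl3, Dpysl5, Enah, Fyn, Limk1, Mical2, Srgap3 and Trio, with percentiles from 6.39 to 61.9. Of the 9 netrins and netrin receptors, Ntn5 had a region 4331 bp upstream with 49 and 22.2. Of the 3 repulsive guidance molecule genes none did.

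Markers of the labelled cell type and of 2 others that use these ligands were counted in the same way. A region of any class lay within 10 kb of 10 of 10 osteoblast markers, 3 of 9 neuronal markers and 3 of 10 endothelial markers, where 55.2% of all genes had one. Forskolin-only regions were found for 5, 0 and 1 of them, where 8.88% of all genes had one. These counts describe occupancy, and the purity of the culture was not tested.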

How the data were processed

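The 4 phospho-CREB libraries were grouped by their sample titles into vehicle and forskolin. Bowtie and HOMER and build mm9 are named in the submitters' processing notes. No version, peak threshold, filter or handling of duplicates is stated there (not given in the sources used here). Deposited files are 1 peak list per library, so replicates had not been pooled, and each peak has a score made by the authors on an unstated scale. Scores were used only as percentiles within a list.

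Peaks of the 4 lists were merged at 1 bp of overlap. Genes and starts came from GENCODE M1 on NCBIM37 (the same build as mm9), with 22225 protein-coding symbols outside the mitochondrial chromosome, and every region lay inside its chromosome. Unc50 meets the letters of the name rule but is no UNC5 receptor, and was left out. Draxin and Map2 of the lists matched no symbol. The motif search covered both strands of the 201 bp around each centre. Library shares were compared with a two-sided exact permutation test, and gene counts were set beside the same count over all genes, without a test. Class and window rules were tested on simulated lists. The labels call the libraries biological replicates but do not say how cultures were separated, so the spread may be partly technical.

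The members and lists were chosen with earlier results of these data known. Named genes were those with a forskolin-only region within 10 kb, a vehicle-only region within 100 kb, a region of all 4 libraries within 1 kb or no region within 100 kb, and those of the 15 highest-ranked forskolin-only regions within 100 kb. Other named genes were chosen after their values were seen. Alternatives were a score threshold, equal lists, stricter overlap, wider merging, other start sites and distances, nearest genes only and leaving out each library. Python 3.11.15, numpy 2.4.6, scipy 1.17.1, pandas 2.3.3, pysam 0.24.0 and matplotlib 3.10.9 were used.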

Additional observations from a re-analysis of the deposited data

How the results depend on the processing

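The counts of genes with a forskolin-only region depended most on how many peaks of each list were used. With the top 50% of each list, the counts within 1, 10 and 100 kb were 1, 7 and 17 (1.56%, 10.9% and 26.6%), beside 2.36%, 5.61% and 26.7% of all genes. The contrast thus turned within 1 kb and was gone within 100 kb. Of the original genes, 0 were kept within 1 kb and 3 within 10 kb (Sema3a, Slit1 and Slit3). The 4 genes new within 10 kb were Plxna1, Sema3b, Sema3c and Sema4f. In the full lists the region of each had a peak in 1 vehicle library, below the threshold used here. Regions of all 4 libraries lay within 1 kb of 3 genes (4.69%), beside 18.7%. With equally long lists, the counts were 1, 4 and 10 (1.56%, 6.25% and 15.6%), beside 0.67%, 2.57% and 14.9% of all genes, so the 100 kb share was near the background. Of the original genes, 0 were kept within 1 kb and 2 within 10 kb (Sema3a and Slit1). The other 2 within 10 kb, Plxna1 and Sema3b, had a vehicle peak in the full lists. Both settings use fewer peaks by construction. Leaving out each library in turn gave 6 to 9 genes within 1 kb and 14 to 20 within 10 kb. The shares over all genes moved too, to between 3.86% and 7.68% within 1 kb and between 10.1% and 17.6% within 10 kb. The extremes were 9 and 19 genes without vehicle replicate 1 (14.1% and 29.7%, beside 7.68% and 15.6%) and 20 without forskolin replicate 2 (31.2%, beside 17.6%). Each of the 12 genes was kept in all 4 cases, but this follows from the class rule and does not measure stability. A forskolin-only region stays in its class whichever library is left out, so the counts could not fall. With only the gene's 5′ end as start, 9 genes remained within 10 kb (14.1%, beside 6.91% of all genes), without Plxnd1, Sema3a and Sema4d.

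Within 100 kb instead of 10 kb, the difference in the share of peaks, forskolin minus vehicle, was -0.174 percentage points instead of 0.0316. With equal lists it was 0.00491. With the replicate number as a replicate block, the difference was 0.0316 with an exact permutation p of 0.5, the smallest that 2 pairs allow. Nothing in the labels shows that equal numbers mark paired cultures. Lists without read totals cannot show whether a region without a peak was empty or below the threshold.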

Other observations

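Some regions of all 4 libraries ranked far apart between the treatments, and they were picked for that gap after their values were seen. The largest gap near a guidance gene was at chr1:62686008-62686362, 63674 bp upstream of Nrp2, in an exon of Pard3b, with common percentiles of 22 and 15.1 in vehicle replicates 1 and 2 and 95.9 and 85.8 in forskolin replicates 1 and 2. Next came a region 41638 bp upstream of Epha2 (chr4:140815299-140815735), with 22 and 8.84 in vehicle and 81.3 and 72.3 in forskolin. It lies nearer to Arhgef19. A region 13339 bp downstream of a start of Epha2 (chr4:140886001-140886333), with Epha2 as nearest gene, had 44.3 and 30 in vehicle and 80.8 and 71.5 in forskolin. In the other direction, a region 52806 bp upstream of Sema4d (chr13:51941759-51942084), nearest to Gadd45g, had 48.3 and 47.6 in vehicle and 4.71 and 9.94 in forskolin.

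Sema4f had a region 4760 bp downstream of a start (chr6:82884838-82885168) that the forskolin-only class missed because of a low vehicle peak. It had percentiles of 89.6 and 94.4 in forskolin replicates 1 and 2, 4.94 in vehicle replicate 2 and no peak in vehicle replicate 1.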
